A study of Mus musculus with 16 samples.

Results

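The miRNA repertoire of resting RAW264.7 cells was described from the 4 arrays of untreated cells, out of 16 arrays in the series. RAW264.7 is a macrophage-like line derived from a mouse tumour induced by the Abelson leukaemia virus, so that all values come from 1 transformed line and not from macrophages of an animal. The untreated group, named Media 1 to Media 4, was kept for 48 h in RPMI1640 with 10% fetal calf serum and received neither the Th2 cytokines (IL-4 and IL-13) nor IL-33. The other 12 arrays hold cells of the same line given the Th2 cytokines at 10 ng/ml, IL-33 at 20 ng/ml for 4 h, or both, and they are used below only to set the untreated cells beside them. The series text speaks of 4 independent experiments, and the labels number the Media samples 1 to 4 without saying more of each. From each sample, 100 ng of total RNA was labelled with Cy3 and hybridised to a single-colour Agilent mouse miRNA array, which carries probes for 1247 mouse miRNAs.

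A miRNA was counted as detected on an array where the scanner software marked it so, and as a member of the resting repertoire where it was so marked on all 4 Media arrays. Of the 1247 miRNAs, 184 (14.8%) met that rule. A further 22 were detected on 3 arrays, 30 on 2 and 60 on 1, and 951 were detected on none. Media 3 stood apart from the other arrays for a set of miRNAs described at the end, and without it 187 miRNAs were detected on all arrays. The largest share was then 55.6%, that of the 10 brightest 79.2% and the let-7 share 4.26%. A miRNA's level is the sum of the background-subtracted signals of its probes, in units of processed signal, and its share is that level as a percentage of the summed level of all miRNAs detected on the same array. Probes differ in how strongly they bind, so a share of signal is not a share of molecules, and ranks between miRNAs are ranks of signal only.

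MicroRNAs are cut from hairpin precursors as short duplexes, of which usually 1 strand is kept in an Argonaute protein and the other is degraded. The kept strand finds target messenger RNAs mainly by pairing of bases 2 to 8, the seed, so miRNAs that share a seed are grouped as a family. The strand from the 5′ side of the hairpin is named 5p and the other 3p. Macrophages are known for miR-223, miR-142, miR-146a, miR-155 and miR-21a, while other miRNAs are known mainly from muscle, neurons, liver, epithelium or embryonic stem cells.

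The mature sequences of the miRNAs with the largest signal are printed here, because 3 of the high-numbered ones share letters and the others represent the main seed families. Sequences are from RefSeq (GRCm38.p6), 5′ to 3′, with the seed in capitals. RefSeq held a mature sequence for 1031 of the 1247 miRNAs on the array and for 136 of the 184 detected ones, and those 136 carried 91.8% of the signal.
miR-6366: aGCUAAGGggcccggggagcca
miR-3963: uGUAUCCCacuucugacac
miR-5100: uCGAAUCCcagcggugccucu
miR-3968: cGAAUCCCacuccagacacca
miR-21a-5p: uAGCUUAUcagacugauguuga
miR-24-3p: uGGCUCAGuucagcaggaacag
let-7c-5p: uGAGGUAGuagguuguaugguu
let-7a-5p: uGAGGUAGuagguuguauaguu
miR-19b-3p: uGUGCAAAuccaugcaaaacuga
miR-20a-5p: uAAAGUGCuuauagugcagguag
miR-27a-3p: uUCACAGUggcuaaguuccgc
miR-23a-3p: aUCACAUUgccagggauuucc

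A single entry, miR-6366, gave more signal than all other detected entries together. Whether its probes, and those of the other high-numbered entries, bound the named miRNAs or fragments of other RNAs was not tested, so the shares below are shares of array signal under the names of the array design. Its level was 187638 on Media 1, 150130 on Media 2, 163263 on Media 3 and 209803 on Media 4. These were 54.4%, 57.6%, 51.9% and 54.8% of the detected signal, a mean of 54.7% ± 2.33 (SD, n = 4). All 4 arrays lay within a narrow range, and on each of them this 1 miRNA reached 50% of the signal alone. Mir6366 lies on the minus strand at chr16:18165093-18165114 (GRCm38.p6), in the span of no other annotated gene. The array's 2 probes for it are short, 11 and 12 bases, and pair with bases 12 to 22 and 11 to 22 of the 22-base miRNA, so neither covers the seed. The brighter of the 2 probes gave 1.64 times the signal of the dimmer one.

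miR-3963 followed with levels of 38916, 29483, 42420 and 52150 on Media 1 to 4, or 12.4% ± 1.30 of the signal (SD, n = 4). It lies on the minus strand at chr3:151023839-151023857, also outside the span of any other gene. miR-5100, within the span of Mief2, held 2.27% ± 0.06. miR-3968, within the span of Trim80, held 1.83% ± 0.43. The brighter probe of miR-5100 was 7.98 times the dimmer one, and that of miR-3968 was 17.6 times, against a median of 1.88 times over the 179 detected miRNAs with more than 1 probe and a dimmest probe above 0. Among those 179 the probes differed more than 2-fold for 85.

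These 3 miRNAs share letters. The run AUCCCA, read on the RNA strand alone, was found in 4 of the 1031 mature sequences (0.388%), and 3 of the 4 were detected on all Media arrays, namely miR-3963, miR-5100 and miR-3968. Together the 3 held 16.5% ± 1.72 of the signal (SD, n = 4), and miR-3963 alone held 12.4%. The array's probes pair from base 4 or 5 of miR-3963, base 8 or 9 of miR-5100 and base 7 or 8 of miR-3968. Those of miR-5100 and miR-3968 thus leave out the start of the run. miR-5100 and miR-3968 share the longer run CGAAUCCCA, which no other of the 1031 sequences held. A shared run of letters is a description of the sequences, and the run was chosen after the values were seen.

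The 20 largest shares were split between such high-numbered entries and miRNAs known from many tissues. Besides the 4 above, the high-numbered entries were miR-5109_v19.0 with 1.29% ± 0.12, miR-5097_v19.0 with 1.26% ± 0.18, miR-6243_v19.0 with 0.928% ± 0.045, miR-5126 with 0.708% ± 0.061, miR-6368 with 0.553% ± 0.088 and miR-1224-5p with 0.513% ± 0.047 (SD, n = 4 throughout). A version suffix such as v19.0 is the array design's own, and 6 of the 20 entries that carry one were detected on all 4 arrays. The suffixed entries detected on each array, also those not detected on all 4, held 4.08% ± 0.12 of its signal. miR-5126 lies within the span of Dner and miR-1224-5p within that of Vwa5b2. The probes of miR-5126 and miR-1224-5p are 10 and 11 bases long.

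miR-21a-5p, an abundant miRNA of macrophages and of many tumours that lies within the span of Vmp1, was the brightest miRNA numbered under 1000. Its level was 7481 on Media 1, 4065 on Media 2, 4214 on Media 3 and 9095 on Media 4, a share of 1.86% ± 0.49 (SD, n = 4). Media 1 and 4 were the high arrays and Media 2 and 3 the low ones. miR-24-3p, which is encoded at chr8 and chr13, followed with 0.921% ± 0.171. miR-27a-3p held 0.528% ± 0.104 and miR-23a-3p 0.465% ± 0.063, and both are encoded beside a miR-24 copy on chr8. miR-19b-3p and miR-20a-5p, of the miR-17-92 cluster, a group of miRNAs that promotes cell growth, held 0.688% ± 0.151 and 0.611% ± 0.163. The remaining 4 of the 20 were let-7c-5p, let-7a-5p, let-7f-5p and let-7i-5p, described below.

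**Figure D1:**
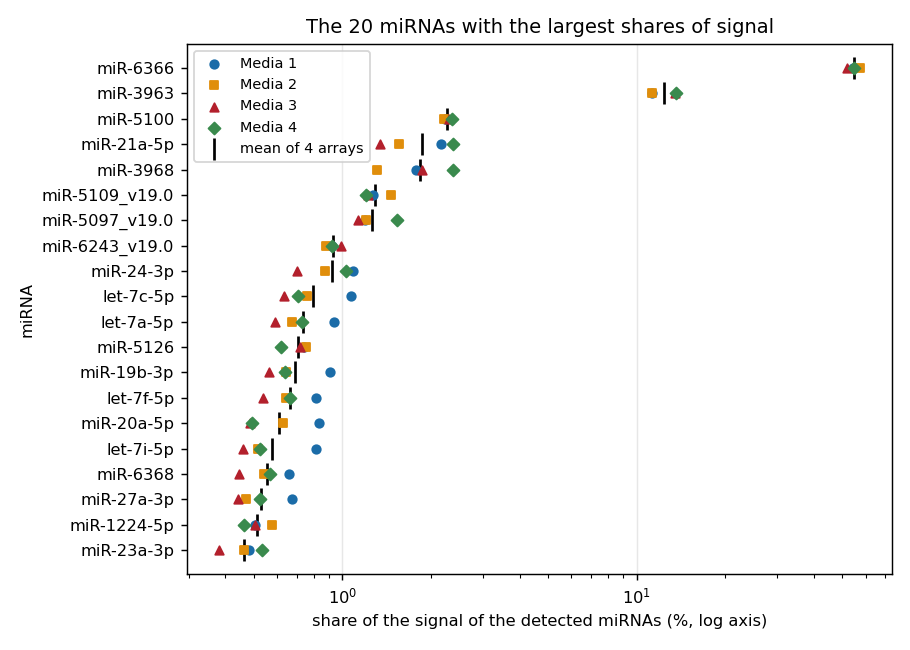
Share of the signal of the detected miRNAs (%, log axis) for the 20 miRNAs with the largest mean share. Each coloured mark is 1 Media array and the black bar is their mean. miR-6366 sits alone near 54.7%, miR-3963 follows near 12.4%, and the remaining 18 have means of 2.27% or less.

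The signal was thus concentrated. The 2 brightest miRNAs on each array held 67.1% ± 1.79, the 10 brightest 78.3% ± 2.25 and the 50 brightest 92.7% ± 1.90 of the detected signal (SD, n = 4). To reach 90% of it took 32, 33, 51 and 30 miRNAs on Media 1 to 4, so Media 3 spread its signal over the most miRNAs. The miRNAs numbered 3000 and over held 77.6% ± 1.86. Those that are let-7 or numbered under 1000 held 20.9% ± 1.69, and those between held 1.42% ± 0.24. These sums take every miRNA of the class detected on the given array, including those not detected on all 4. Detected on all 4 arrays were 28 of 320, 138 of 800 and 18 of 127 miRNAs of these classes, in that order. Numbers follow the order in which miRNAs were registered, so the low-numbered class holds those known longest.

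Within the let-7 and under-1000 class no single miRNA dominated. The brightest 1 held 8.98% ± 2.68 of that class's signal and the brightest 10 held 38.4% ± 7.25 (SD, n = 4). To reach 50% of it took 13, 16, 24 and 14 miRNAs on Media 1 to 4. The median level of the 184 detected miRNAs was 149, and the 3 dimmest were miR-714, miR-345-5p and miR-532-5p. miR-714 had levels of 36.3, 36.8, 24.8 and 23.8 on Media 1 to 4. Of the 184, 152 were also well above background on all 4 arrays and 1 on none, which was miR-181d-5p.

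Of seed families, the 136 detected miRNAs with a RefSeq sequence fell into 105 seeds. Of these, 15 seeds were shared by 2 or more detected miRNAs, 46 miRNAs in all, with 10.1% of the signal. The 2 largest families by signal were the single members miR-6366 and miR-3963, and the third was let-7. The let-7 family, known for restraining growth and for rising as cells differentiate, is printed here to show how few bases separate its members, in order of signal.
let-7c-5p: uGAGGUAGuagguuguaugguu
let-7a-5p: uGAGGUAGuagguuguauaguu
let-7f-5p: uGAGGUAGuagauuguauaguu
let-7i-5p: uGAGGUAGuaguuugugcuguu
let-7d-5p: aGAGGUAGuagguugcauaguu
let-7b-5p: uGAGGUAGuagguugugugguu
let-7g-5p: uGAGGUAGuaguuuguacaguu
let-7e-5p: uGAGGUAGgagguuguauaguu
miR-98-5p: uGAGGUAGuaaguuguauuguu
let-7k: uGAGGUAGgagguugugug

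Of the 11 miRNAs on the array with the let-7 seed, these 10 were detected on all Media arrays. Their summed share was 5.2%, 3.79%, 3.15% and 3.79% on Media 1 to 4, a mean of 3.98% ± 0.87 (SD, n = 4), or 19% ± 3.8 of the let-7 and under-1000 class. Media 1 was the highest array and Media 3 the lowest. let-7c-5p had levels of 3682, 1979, 1984 and 2712 and a share of 0.792% ± 0.192. let-7a-5p held 0.733% ± 0.148, let-7f-5p 0.663% ± 0.114 and let-7i-5p 0.578% ± 0.159. On each array let-7i-5p was the dimmest of these 4, with levels of 2799, 1349, 1443 and 2008, and let-7f-5p was the next. let-7c-5p was the brightest of them on Media 1 to 3, and let-7a-5p on Media 4. let-7d-5p held 0.435% ± 0.097, let-7b-5p 0.414% ± 0.096 and let-7g-5p 0.248% ± 0.054. let-7e-5p with 0.0583% ± 0.0134, miR-98-5p with 0.0450% ± 0.0064 and let-7k with 0.0139% ± 0.0037 were the dim members. Their sequences differ by few bases, and how far the probe of 1 member also binds the others was not tested.

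Among the other shared seeds, the AAAGUGC family, whose members promote passage through the cell cycle, came next with 1.04% ± 0.23 (SD, n = 4). Its 5 detected members were miR-20a-5p, miR-20b-5p, miR-106b-5p, miR-93-5p and miR-17-5p, of 6 on the array. miR-20a-5p gave most of it, with a level of 1984 against 624 for miR-20b-5p, 366 for miR-106b-5p, 331 for miR-93-5p and 81.7 for miR-17-5p. The 2 miR-19 members with seed GUGCAAA held 0.835% ± 0.177. The AGCAGCA family, whose members miR-15 and miR-16 restrain cell growth, held 0.774% ± 0.156. That share came mainly from miR-15b-5p, miR-16-5p, miR-15a-5p and miR-322-5p, the 4 of 10 on the array that were detected on all Media arrays. miR-27a-3p and miR-27b-3p, known as regulators of fat metabolism, held 0.659% ± 0.123, and the 3 miR-29 members, which target collagens, 0.515% ± 0.122. miR-221-3p and miR-222-3p, known for targeting a cell cycle inhibitor, held 0.501% ± 0.084.

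**Figure D2:**
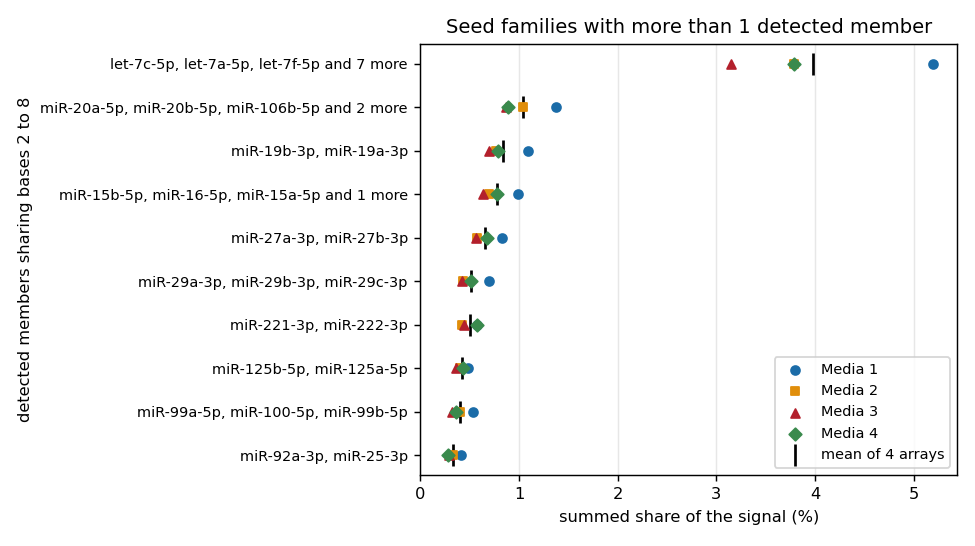
Summed share of the signal (%) of the 10 seed families with more than 1 detected member that had the largest mean. Each coloured mark is 1 Media array and the black bar is their mean. The let-7 family lies at 3.15% to 5.2%, above all others shown, and the next family has a mean of 1.04%.

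Of the 136 placed miRNAs, 38 lay in 17 groups of neighbours within 10 kb on 1 strand. In 8 of the 17 groups all detected members lay within 2-fold of each other in signal, and in the other 9 they did not. The miR-17-92 cluster at chr14:115043684-115044496 had 7 detected members, and the level ran from 81.7 for miR-17-5p to 2253 for miR-19b-3p, a 27.6-fold range. miR-18a-5p lay between with 434, miR-19a-3p with 487 and miR-92a-3p with 800. In contrast, the 3 members at chr8:84208563-84208896, miR-23a-3p, miR-27a-3p and miR-24-3p, lay within 1.99-fold of each other. The 3 at chr5:138165332-138165807, miR-106b-5p, miR-93-5p and miR-25-3p, lay within 1.38-fold. miR-15b-5p and miR-16-5p at chr3:69009775-69009939 differed by 1.03-fold. Several of these miRNAs (miR-24-3p, miR-19b-3p, miR-92a-3p and miR-16-5p) have a second genomic copy, and the array cannot tell the copies apart. Probe binding also differs between members, and its part in these ranges was not tested.

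Hairpins were then read arm by arm. The array holds both arms of 452 hairpins, of which 267 had neither arm detected on any Media array and 59 were detected on some arrays only. At least 1 arm was detected on all 4 arrays for 126 hairpins. Of these, 53 had the 5p arm alone, 42 had the 3p arm alone, 13 had both, and 18 had 1 arm on all arrays and the other on some. For the 95 hairpins with 1 arm alone, the other arm was not well above background on any array, so its ratio is a lower bound. The bound divides the bright arm's mean by the mean, over arrays, of the lowest signal well above background or the dim arm's own signal where higher, both as means of log2 values. The median bound was at least 4.99-fold.

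The largest bounds belonged to miRNAs named above. A dim arm below the lowest level well above background (23.8 to 35.2) is replaced by that level. The bounds therefore largely follow the signal of the bright arm and do not rank hairpins by how one-sided they are. miR-24 was at least 88.4-fold brighter on its 3p arm, with 3p levels of 3735, 2280, 2201 and 3929 and 5p levels of 37.6, 15.7, 13.2 and 38.4 on Media 1 to 4. let-7c was at least 86.6-fold brighter on its 5p arm, let-7a at least 80.6-fold, let-7f at least 63.3-fold and let-7i at least 63.0-fold. miR-20a was at least 66.5-fold brighter on 5p. miR-19b and miR-27a went the other way, with 3p at least 75.5-fold and at least 58.1-fold brighter. The 5p levels of miR-24 are the sums of its 2 named 5p arms, 1 from each genomic copy. Thus for the 4 let-7 hairpins named here the 5p arm alone was detected, and for miR-24 and miR-27a the 3p arm alone. miR-21a has no bound, since its 3p arm was detected on 2 of 4 arrays. That arm had levels of 37.2, 19.6, 9.36 and 47.1 against 7481, 4065, 4214 and 9095 for 5p.

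For the 13 hairpins with both arms detected throughout, the log2 ratio of the 5p over the 3p level was tested against 0 with limma. At an adjusted p under 0.05, 9 of the 13 passed (69.2% of those tested, which is the background for the named hairpins), 3 with 5p brighter and 6 with 3p brighter. The arms have different probes, so a fixed difference in binding between 2 probes cannot be told apart from a ratio of arms.

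The hairpins with the steadiest ratios included miR-142a, which is made in blood cells. Its 3p arm had levels of 592, 291, 543 and 495 on Media 1 to 4 and its 5p arm 107, 44.2, 82.5 and 72.7. The 3p arm was the brighter on all 4 arrays, by 6.36-fold, with a log2 ratio of -2.67 (SE 0.11, n = 4, limma adjusted p = 0.000116). miR-222 was also brighter on 3p, by 7.22-fold, with 3p levels of 379, 320, 314 and 453 and 5p levels of 66.3, 41.3, 38.7 and 59.9 (log2 ratio -2.85, SE 0.13, limma adjusted p = 0.000116). miR-652, within the span of Tmem164, had 5p levels of 430, 288, 283 and 429 and 3p levels of 146, 93.9, 86.9 and 130 and was brighter on 5p by 3.14-fold (log2 ratio 1.65, SE 0.09, limma adjusted p = 0.000187). miR-1897 was brighter on 5p by 2.22-fold (1.15, SE 0.13, limma adjusted p = 0.00215).

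Each of these arms kept its side on all 4 arrays. Nearly balanced pairs were found too. Of the 13 hairpins, 6 had arms within 2-fold of each other, and 2 of those passed the test. miR-17 was brighter on 3p, with a log2 ratio of -0.64 (SE 0.15, limma adjusted p = 0.0190), and so was miR-140, a miRNA best known from cartilage, with -0.59 (SE 0.11, limma adjusted p = 0.0107). The miR-17 call was lost without Media 1 (limma adjusted p = 0.0729) and without Media 2 (adjusted p = 0.100), and that of miR-140 without Media 2 (adjusted p = 0.0699). miR-99b had a log2 ratio of -0.44 and did not pass (limma adjusted p = 0.150). The log2 ratios of miR-574 (0.20), miR-466m (0.61) and miR-483 (-0.22) did not pass either, and the sign of each of these 4 turned under at least 1 other way of processing.

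The remaining ratios moved with the array. miR-466f was brighter on 3p on all 4 arrays, with log2 ratios of -2.25, -3.46, -5.05 and -3.27 on Media 1 to 4 and a mean of -3.51 (SE 0.50, limma adjusted p = 0.00468). miR-466h was brighter on 3p with -1.48 (SE 0.32, limma adjusted p = 0.0157), a call lost without Media 2 (adjusted p = 0.0699) and with another background correction, normexp (adjusted p = 0.260). miR-466i was brighter on 5p with 2.07 (SE 0.66, limma adjusted p = 0.0483), though its ratios ran from 3.61 on Media 1 to -0.06 on Media 3. That limma call was lost without Media 1 (adjusted p = 0.160), without Media 2 (adjusted p = 0.129) and without Media 4 (adjusted p = 0.166). Without Media 3, miR-466m passed with a log2 ratio of 1.37 (limma adjusted p = 0.0377). For 6 of the 13 hairpins (miR-466f, miR-466h, miR-466i, miR-466m, miR-483 and miR-574) the 3p arm is among the 20 miRNAs that varied most between arrays, described below. Of the other 7 hairpins 6 passed, and of these 6 hairpins 3 did.

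**Figure D3:**
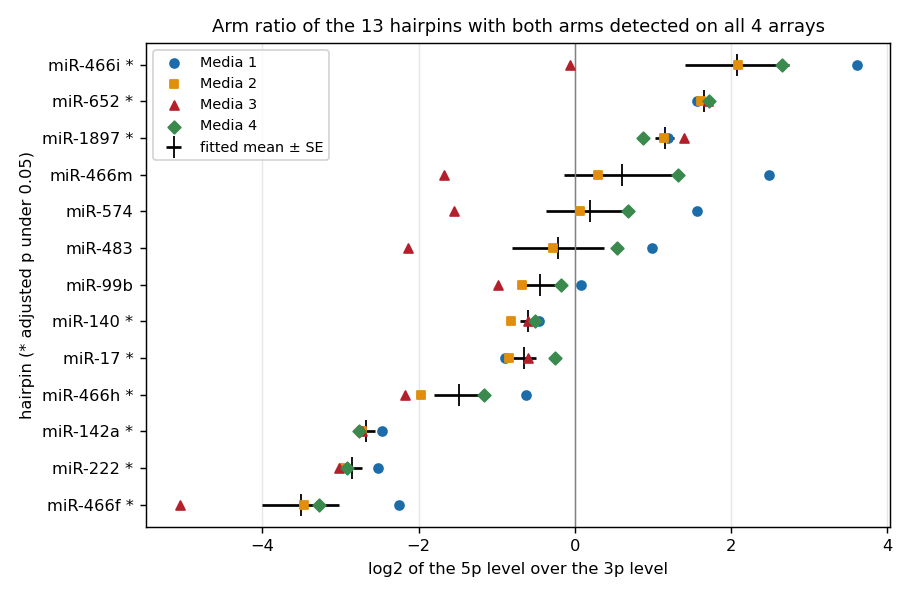
log2 of the 5p level over the 3p level for the 13 hairpins with both arms detected on all 4 Media arrays. Coloured marks are single arrays, the black bar is the fitted mean with its SE, and a star marks an adjusted p under 0.05 (limma). The 4 marks of miR-142a, miR-222 and miR-652 lie close together, while those of miR-466m run from 2.48 on Media 1 to -1.67 on Media 3.

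Most of the listed miRNAs known from myeloid cells were detected. Of 11 listed names, 10 are on the array. Of these, 7 (70%) were detected on all 4 Media arrays, against 14.8% of all miRNAs on the array. They were miR-21a-5p, miR-142a-3p, miR-142a-5p, miR-223-3p, miR-146a-5p, miR-342-3p and miR-322-5p. miR-142a-5p was well above background on 3 arrays and miR-322-5p on 2, and the others on all 4. The sequences of 3 of the 7 are given.
miR-223-3p: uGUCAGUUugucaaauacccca
miR-142a-3p: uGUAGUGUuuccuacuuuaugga
miR-146a-5p: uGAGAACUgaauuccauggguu
Apart from miR-21a-5p they were of modest signal. miR-142a-3p held 0.146% ± 0.031 and ranked 53 of 184. miR-223-3p, which restrains the production of granulocytes, had levels of 377, 181, 209 and 228 on Media 1 to 4 and held 0.0762% ± 0.0225, at rank 76. miR-146a-5p, a brake on Toll-like receptor signalling, held 0.0394% ± 0.0059, at rank 105. miR-155-5p, which rises on inflammatory activation, was detected on 2 of 4 arrays, with levels of 20.7, 15.5, 11.1 and 32.9. miR-511-3p, encoded in the mannose receptor gene of macrophages, and miR-223-5p were detected on none.

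Most miRNAs known mainly from other tissues were not detected, as was the case for most miRNAs on the array. Across 13 lists of such miRNAs, 84 names are on the array. Of these, 71 (84.5%) were detected on no Media array, 7 on some and 6 (7.14%) on all 4. Over all 1247 miRNAs these shares were 76.3% for none and 14.8% for all 4. Together the 84 held 0.177% ± 0.024 of the signal (SD, n = 4). Of the other lists, 27 of 30 widely expressed miRNAs and all 9 listed let-7 miRNAs were detected on all 4. Not detected means that the scanner software did not mark the miRNA, and does not show that the miRNA is absent. The 3 widely expressed ones without detection were miR-191-5p, miR-130a-3p and miR-101a-3p.

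No member was detected for the erythroid list (miR-144-3p, miR-144-5p, miR-451a and miR-486a-5p), the endothelial list (miR-126a-3p and miR-126a-5p), the hepatocyte list (miR-122-5p and miR-122-3p) or the epithelial list of 7, among them miR-141-3p, miR-200c-3p, miR-203-3p and miR-205-5p. These lists are short, and 76.3% of all miRNAs on the array were likewise detected on none. miR-451a, the miRNA of red cells, had levels of -0.94, -1.71, -4.84 and 0.57, that is at background. miR-122-5p, the main liver miRNA, had 13.2, 12.1, 7.69 and 14.7, which also went unmarked. Of the neuronal list 9 of 10 (90%) were detected on none, among them miR-124-3p, miR-9-5p, miR-137-3p and miR-138-5p. miR-128-3p was detected on Media 1 and 4, with levels of 42.4, 22, 19.3 and 36.9 on Media 1 to 4. In the pancreatic and endocrine list 5 of 6 (83.3%) were detected on none, among them miR-375-3p, of pancreatic islets. In the muscle list 6 of 7 (85.7%) were detected on none, among them miR-1a-3p, miR-133a-3p, miR-208a-3p and miR-499-5p. The muscle miRNA miR-206-3p was detected on 3 arrays with levels of 37.9, 33.6, 48.8 and 44.5. It was above background on none.

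The pluripotency list had 12 of 13 members (92.3%) undetected, against 76.3% of all miRNAs on the array. These included miR-291a-3p, miR-294-3p, miR-295-3p and miR-302a-3p, but 2 of those 12 were not at the bottom of the scale. miR-290a-5p had levels of 50.2, 35.7, 39.2 and 41.7 and miR-294-3p 40.5, 33.7, 46.9 and 39.3, with means of 41.7 and 40.1 against 30.5 for miR-714, which was marked as detected. The thirteenth, miR-302c-3p, was detected on 2 arrays. Of the list for male germ line and cilia, 9 of 10 (90%) were undetected, against the same 76.3%. Among them were miR-34c-5p, miR-449a-5p, miR-741-3p and miR-871-3p, and miR-34b-3p was detected on Media 3 alone with a level of 39.9. In the stromal list 5 of 7 (71.4%) were undetected, below that 76.3%. Among them were miR-143-3p, miR-145a-5p, miR-145a-3p and miR-199a-5p. miR-214-3p was detected on Media 2 alone with 37.8, and so was miR-215-5p, of gut and kidney epithelium, with 40.0.

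The 6 tissue-listed miRNAs that were detected on all 4 arrays were dim. miR-7a-5p, which is high in endocrine cells and brain, was the brightest, with levels of 203, 116, 145 and 204 and a share of 0.0507% ± 0.0066. miR-181b-5p, of lymphocytes, had 71.8, 89.5, 70.7 and 83.6, and its relative miR-181d-5p 37.4, 40.1, 37.7 and 47.9 without being above background. miR-181a-5p and miR-150-5p, the better known lymphocyte miRNAs, were among the 5 of 7 (71.4%) on that list detected on no array. miR-96-5p and miR-182-5p, of sensory organs, had mean levels of 65.2 ± 26.5 and 44.8 ± 20.0 (SD, n = 4). The third miRNA of that cluster, miR-183-5p, was detected on 2 arrays. miR-199a-3p, of stromal cells, had 61.1, 34.2, 35.6 and 70.9. Only miR-7a-5p, miR-181b-5p and miR-182-5p of the 6 were also well above background on all 4 arrays. The lists do not hold both arms of every hairpin. miR-211-5p is listed for sensory organs and was not detected. Its other arm, miR-211-3p, is not listed and was detected on all 4 arrays, with levels of 267, 198, 201 and 204.

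Imprinted and Hox-linked groups were read the same way. Of 27 listed miRNAs of the large Dlk1-Dio3 cluster, which is active in embryo, placenta and brain, 1 was detected on all 4 arrays and 22 (81.5%) on none, near the 76.3% over all miRNAs. The list does not hold every miRNA of that region. The listed one was miR-494-3p (chr12:109715367-109715388), with levels of 635, 575, 493 and 754 and a share of 0.190% ± 0.027. miR-3072-5p, which is not on the list and lies near it at chr12:109747893-109747914, was also detected on all 4 arrays, with levels of 85.3, 69.6, 69.1 and 81.4. miR-376c-3p, of the same cluster, had levels of 42.6, 2285, 1.74 and 1020 on Media 1 to 4 and was detected on Media 2 and 4 alone. Of the Hox-linked miRNAs miR-10a-5p was detected throughout with 0.0269% ± 0.0056, while miR-10b-5p, miR-196a-5p and miR-196b-5p were detected on no array. Those 3 are 60% of the 5 listed, below the 76.3% over all miRNAs. Yet miR-196a-5p had a mean level of 33.8, above the 30.5 of miR-714, which was marked as detected. miR-615-3p, also listed, was detected on Media 3 alone with a level of 66.1. Both arms of miR-483, encoded in Igf2, were detected, and neither arm of miR-675, encoded in H19, was.

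**Figure D4:**
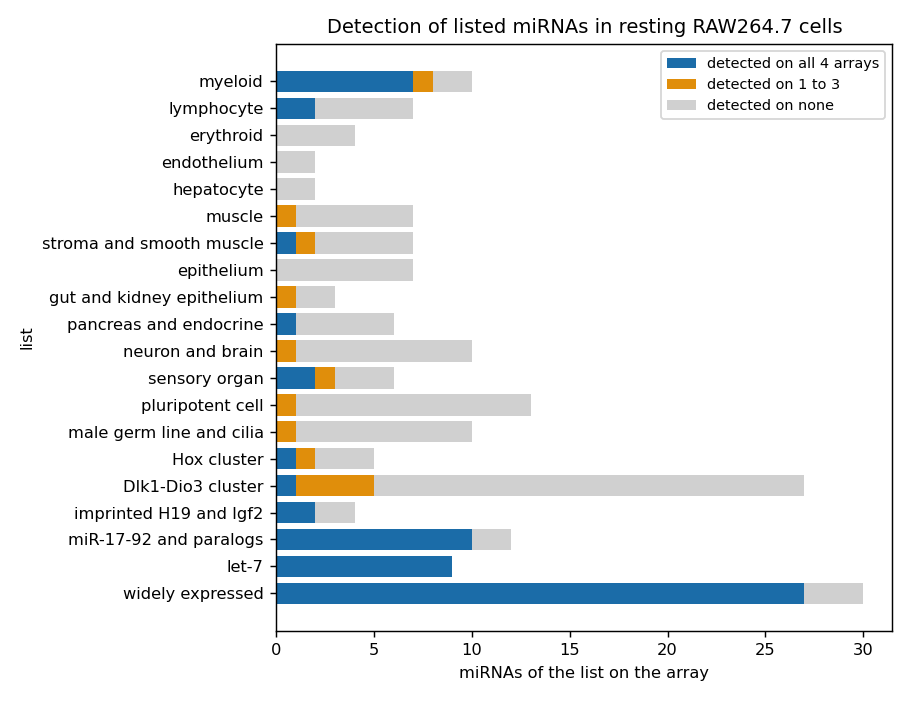
Number of miRNAs of each list that are on the array, split by whether they were detected on all 4, on 1 to 3 or on none of the Media arrays. The let-7 bar (9 of 9) and the widely expressed bar (27 of 30) are mostly blue, while the erythroid, endothelial, hepatocyte and epithelial bars are wholly grey.

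The 4 arrays detected 228, 206, 252 and 236 miRNAs, against 219 to 256 on the other 12 arrays of the series, and Media 3 detected the most of the 4. Of the 60 miRNAs detected on a single array, 44 were on Media 3, against 10, 4 and 2 on Media 1, 2 and 4. The 99th percentile of the negative control spots was 17.9, 30.6, 59.7 and 19.6 on Media 1 to 4, highest on Media 3. Media 1 was hybridised on 1 slide and Media 2 to 4 on the other. No spot was saturated.

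Within the 184 the difference lay in a limited set of miRNAs. Of the 112 miRNAs detected on 1 to 3 arrays, 60 were also brightest on Media 3. Among the 184, 20 had an SD of the log2 share over 0.8 (0.874 to 2.15), and the other 164 had an SD of 0.574 or less, with a median of 0.265. All 20 had their largest share on Media 3 and their smallest on Media 1. Their median level was 88.8, 222, 768 and 179 on Media 1 to 4, and their summed share 0.726%, 1.87%, 5.33% and 1.15%. The 4 arrays rank in the same order here as by the negative control percentile above, and the part of that background in these levels was not tested. Across the 184 miRNAs the Pearson correlation of log2 levels between 2 Media arrays was 0.851 to 0.984, and across the 164 it was 0.983 to 0.990. The correlations describe arrays of 1 cell line that share most of their signal order.

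The 8 most variable were miR-467b-3p, miR-466m-3p, miR-467d-3p, miR-467a-3p, miR-1943-3p, miR-669c-3p, miR-669f-3p and miR-466g. miR-467b-3p had levels of 36.3, 163, 1123 and 110 on Media 1 to 4, a 33.9-fold range in share. miR-466g had 229, 448, 1515 and 409. By the SD of the log2 level in place of the share, miR-1947-3p took the place of miR-466g, with levels of 44.1, 54.1, 267 and 64.7. Of the 20, 13 carry the names miR-297, miR-466, miR-467 or miR-669, the large families encoded mainly in an intron of Sfmbt2 that are rich in repeats of UG and AC. Of the 25 detected miRNAs of those names, the 10 named 3p had a median SD of 1.42 and the 10 named 5p 0.256. Where the name gives an arm, the variation thus lay in the 3p arms. Of those whose name gives no arm, miR-466g, miR-466q and miR-467f had an SD of 1.22, 1.22 and 1.01. miR-466j and miR-669n had 0.230 and 0.113. The brightest miRNAs detected on 3 of 4 arrays were of the same kind, namely miR-467g, miR-467c-3p, miR-467e-3p, miR-669a-3-3p and miR-669h-3p. miR-467c-3p, for example, had 40.3, 124, 989 and 94.1.

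The remaining 7 of the 20 do not carry those names, but the probes of most of the 20 held 1 of 2 kinds of run. Probes are printed 5′ to 3′ as deposited, in DNA letters, in capitals where they hold the run GTGTGT or one of the G-rich runs GGAGG and GGGAG, to show both kinds beside a let-7a-5p probe without them.
miR-466i-3p probe: taGTGTGTatGTGTGTGTg
miR-574-3p probe: tgtggGTGTGTgcat
miR-877-3p probe: tGGGAGGAGGGAGaaga
miR-207 probe: gaGGGAGGagagccag
miR-483-3p probe: aagacGGGAGGGGAGGag
let-7a-5p probe: aactatacaacctactacct
The longest probe of 19 of the 20 held at least 1 of the 3 runs, searched on the probe strand only. So did that of 3 of the other 164 detected miRNAs (1.83%) and of 5.05% of all 1247 miRNAs on the array. Among the 44 miRNAs detected on Media 3 alone, the longest probe of 10 (22.7%) held a run. Likewise 10 of those 44 carry the names miR-297, miR-466, miR-467 or miR-669, so most of the 44 have neither trait. GTGTGT was in 14 of the 20, and GGAGG and GGGAG, which can overlap each other, were in 5 each. The median share of C in the longest probe was 5.56% over the 20 and 35% over the other 164. The 1 exception was miR-1196-5p_v19.0. The runs were chosen after the values of these arrays were seen, so the counts describe this set and test nothing. miR-574-3p, within the spans of Tlr6 and Fam114a1, had levels of 251, 541, 1575 and 497 on Media 1 to 4, while its 5p arm had 747, 569, 539 and 800. The 5p arm was highest on Media 4 and Media 1, and the 3p arm was highest on Media 3 and lowest on Media 1.

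**Figure D5:**
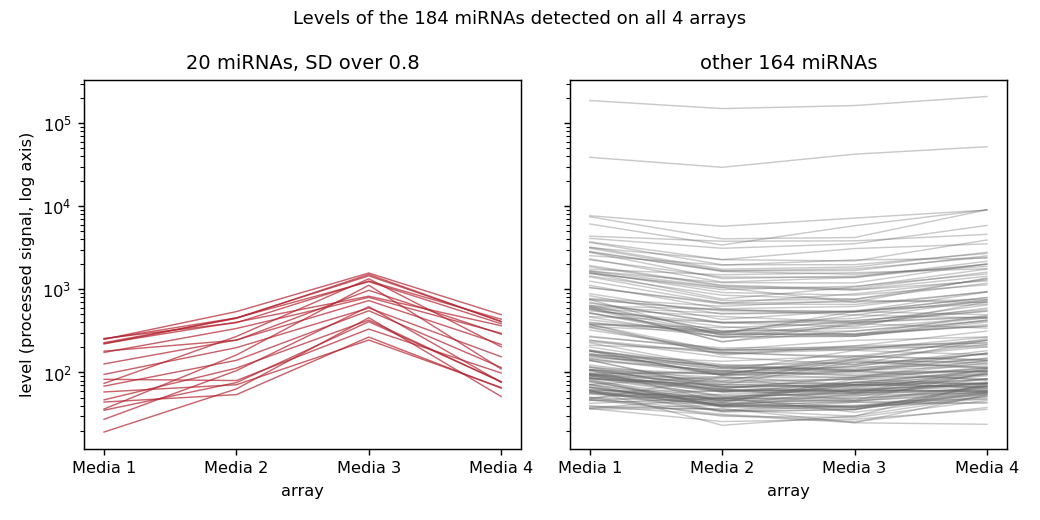
Level (processed signal, log axis) of each of the 184 detected miRNAs on the 4 Media arrays, 1 line per miRNA. On the left are the 20 with an SD of the log2 share over 0.8, whose lines peak on Media 3. On the right are the other 164, with an SD of 0.574 or less. Their levels also differ between arrays, for miR-21a-5p from 4065 on Media 2 to 9095 on Media 4.

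Set beside the treated cells, the resting repertoire was largely shared. All 184 miRNAs were detected on all 4 arrays of cells given IL-33 without Th2 cytokines, 181 on all 4 of the Th2 group and 178 on all 4 of the Th2 group given IL-33. Those groups had 225, 209 and 207 miRNAs detected on all of their arrays, so the shared ones were 81.8%, 86.6% and 86.0% of those totals. On all 16 arrays 178 miRNAs were detected. Whether the groups differ in level was not tested here.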

How the data were processed

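The members and lists were chosen with earlier results of these data known. The deposited scanner files hold probe intensities from Agilent Feature Extraction 10.7.3.1, per the file headers, already background-subtracted; control spots were left out. The deposited table of the authors holds quantile-normalised intensities and served as an alternative. The detection and above-background flags are other values that the authors' scanner software wrote.

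For each array, spots not marked as outliers were averaged per probe, and probes were summed per miRNA, with no normalization between arrays. Negative sums were kept. Shares used the miRNAs detected on that array as the total. The rule for named miRNAs took the 20 with the largest mean share, the 10 largest seed families, all 13 hairpins with both arms detected, the 8 largest bounds, the detected and up to 4 undetected members of each list, the 8 most variable, the 5 brightest detected on 3 arrays and the 3 dimmest. Others named, such as the miRNAs whose probes are printed, were chosen after their values were seen. Arm ratios were tested as log2 values with lmFit and eBayes (limma 3.58.1, R 4.3.3) with Benjamini-Hochberg adjustment over 13 hairpins. The labels name 1 group here, so no groups were compared. The p-values measure the spread between these 4 arrays, whose number limits the precision. Other steps used Python 3.11.15 and pandas 2.3.3. The fit was tested on simulated data. Alternatives were normexp, the scanner's total gene signal, means over probes, the authors' table, outliers kept, other totals, stricter detection and leaving out each array. Sequences and spans came from RefSeq (GRCm38.p6), while the array headers name mm9.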

Additional observations from a re-analysis of the deposited data

Results flagged for a closer look

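Of 91 sets of 4 Media values examined, 16 had 1 array standing far from the other 3, measured as the gap to the nearest value over the whole range. Chance gives about 1 in 20 sets of independent values, but many of these sets were examined because they varied or were detected on few arrays, and all come from the same 4 arrays, so the 2 rates cannot be compared. The array apart was Media 3 in 13 of them, Media 2 in 2 and Media 1 in 1.

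For the share of the signal, Media 3 was the high array with a gap of 0.85 of the range for miR-467b-3p, 0.865 for miR-466m-3p, 0.843 for miR-1943-3p and 0.83 for miR-483-3p, all detected on every array. Among miRNAs detected on 3 arrays, the gap was 0.84 for miR-467g, 0.881 for miR-467c-3p, 0.891 for miR-467e-3p, 0.865 for miR-669a-3-3p and 0.908 for miR-669h-3p. Among miRNAs detected on Media 3 alone, it was 0.969 for miR-34b-3p, 0.886 for miR-615-3p, 0.921 for miR-376a-3p and 0.96 for miR-376b-3p.

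Media 2 was the high array for miR-181b-5p (0.877) and miR-214-3p (0.878). The log2 arm ratio of miR-142a stood apart on Media 1 (0.833), with -2.47 against -2.72, -2.72 and -2.77 on Media 2 to 4.

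Of miRNAs that no Media array detected, 3 were detected on all 4 arrays of at least 1 treated group. miRNAs seen on fewer treated arrays were not counted. miR-181a-5p was detected on 9 of the 12 treated arrays. miR-511-3p was detected on 8, all of them given the Th2 cytokines, and so was miR-532-3p on 8.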

How the results depend on the processing

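No paired analysis was possible because the description uses 1 group and compares no groups. Alternatives for the largest share and the 10 largest shares kept within 1 SD of 54.7% and 78.3%, except normexp background correction, which gave 48.6% and 70.1%, and the total without the 2 brightest miRNAs, which gave 6.95% and 38.7% and was chosen after seeing the data. The let-7 seed share of 3.98% became 12.1% with that total and 19% of the let-7 and under-1000 class, another total chosen after seeing the data. Requiring signal well above background left 3 of the 6 tissue-listed miRNAs and 152 of the 184 detected ones, and 206 were detected on at least 3 arrays.

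Arm ratios turned sign for 4 hairpins, none of them past the threshold in the values reported. The log2 ratio of miR-99b became 1.15 with the scanner's total gene signal, past the limma threshold, and 0.56 with means over probes. That of miR-483 became 0.61 with normexp, that of miR-574 -0.18 with normexp and -0.13 with the authors' table. Without 1 array, miR-466m ranged from -0.014 to 1.37, miR-483 from -0.62 to 0.42 and miR-574 from -0.26 to 0.78.

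Leaving out each array in turn gave 184 to 196 detected miRNAs, 6 to 7 tissue-listed ones, 53.7% to 55.6% for the largest share, 77.5% to 79.2% for the top 10, 3.57% to 4.26% for let-7 and 6 to 10 hairpins past the threshold. Dim miRNAs are limited by background, since the lowest level well above it was 23.8 to 35.2.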

Other observations

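Among the miRNAs detected on 1 to 3 Media arrays, 12 were brightest on Media 2, and for 10 of these Media 4 came next. miR-376c-3p was the brightest, with levels of 42.6, 2285, 1.74 and 1020 on Media 1 to 4. miR-378a-5p had 12.1, 217, 4.23 and 49.5. miR-3063-3p had 1.35, 143, -0.15 and 49.7. The set was picked after its values were seen, and no test was made.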
